A study of Mus musculus with 12 samples.

Results

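Clusterin and 6 further genes of mucosal defence (Clu, Pigr, Lcn2, Ltf, Pglyrp1, Reg3g and Slpi) were followed in the mouse anterior prostate. They are 7 of the 19935 genes read, and each was measured by a single Affymetrix transcript cluster. The genes were picked by name with the difference between the genotypes already known, so that difference is described for them without a test. The tissue came from male mice aged 12 weeks, bred to the F3 generation from C57BL/6J and DBA/2 stock and given the AIN93G diet from 3 weeks of age. One genotype, APT121, carries T121, a piece of the SV40 large T antigen that inactivates the pRb family, driven by the probasin promoter in prostate epithelium, and its lobes bear prostatic intraepithelial neoplasia (PIN). The other genotype is wild type. Each array holds RNA of 2 mice combined: 8 transgenic mice gave 4 APT121 arrays, and 16 mice gave 8 wild type arrays. Whole lobes were used, so more cells of a type and more RNA per cell cannot be told apart.

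Mucosal surfaces and the glands that drain onto them release a shared set of protective proteins. Clusterin (Clu) is a secreted chaperone that holds unfolded proteins in solution and restrains the terminal complement complex, and in rat prostate its message is known to accumulate after castration. The polymeric immunoglobulin receptor (Pigr) carries dimeric IgA from the tissue side of an epithelial cell to the lumen. Lipocalin 2 (Lcn2) withholds iron from bacteria by binding their siderophores, and lactoferrin (Ltf) binds iron itself. Pglyrp1 binds bacterial peptidoglycan, Reg3g is a lectin that kills Gram-positive bacteria at the gut surface, and Slpi is a WAP-domain inhibitor of neutrophil elastase with antimicrobial activity of its own. Lcn2, Ltf and Pglyrp1 are also stored in neutrophil granules, and genes of this set are known to respond to NF-kB, C/EBP and STAT3.

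RefSeq promoters (GRCm38.p6, 250 bases before to 50 after the start) were found for 6 of the 7 genes and searched on both strands for 8 motifs. The NF-kB consensus, also called kappaB, lies in 2 of them, against 8.46% of 32851 promoters. Those 2 genes had different measured outcomes, Pglyrp1 being far higher in APT121 and Reg3g lying near the bottom of the scale in both genotypes, which is why both are shown. The 130 bases before each start are printed from chr7:18884560-18884689 (plus strand) and chr6:78468875-78469004 (minus strand), with the kappaB match, and in Reg3g also a TATAAA match, in capitals.
Pglyrp1: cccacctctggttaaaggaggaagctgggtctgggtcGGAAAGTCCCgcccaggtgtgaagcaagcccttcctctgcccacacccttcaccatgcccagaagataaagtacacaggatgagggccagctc
Reg3g: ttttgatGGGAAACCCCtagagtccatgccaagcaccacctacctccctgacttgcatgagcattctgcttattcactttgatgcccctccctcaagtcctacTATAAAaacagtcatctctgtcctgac

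The kappaB match starts 93 bases before the start of Pglyrp1 and 123 bases before that of Reg3g. A C/EBP motif (TTGCNNAA) is held by 3 of the 6 promoters and by 10.8% of all. The 3 matches, in capitals with 9 bases on either side, are shown because they too fall in genes with different outcomes. They come from chr2:32387939-32387964 (minus strand), chr9:111019208-111019233 (plus strand) and chr2:164356732-164356757 (minus strand).
Lcn2: cccttcctgTTGCTCAAccttgcaca
Ltf: gcaggcctaTTGGGCAAtagggtggg
Slpi: gaatttgtaTTGAGCAAtaggttaga

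The Pigr window holds a STAT motif (TTCNNNGAA, in 8.30% of all promoters) that begins at base 40 after the start, and an androgen receptor hexamer (AGAACA, in 19.0%) 114 bases before it. Reg3g has a heat shock element core (GAANNTTC, in 7.86%) 233 bases before its start, and TATAAA, which it holds on both strands, is in 13.6% of promoters. AP-1 (TGANTCA, 7.81%) and E2F (TTTNNCGC, 5.17%) motifs matched in 0 of the 6. Motif matches describe these letters in this window and were not tested against the expression values.

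The 7 genes fell into 2 sets. Clu, Pglyrp1, Pigr and Lcn2 were higher in APT121, on all 4 arrays above all 8 wild type arrays, while Ltf, Reg3g and Slpi differed by less than 0.5 on the log2 scale. Over all genes, 17.7% had APT121 values all above the wild type values and 16.9% all below (34.6% in either direction). Because the genes were chosen on this contrast, nothing is read from their count. Levels below are log2 intensities of the deposited RMA values, given as mean ± SD, and a difference is the APT121 mean less the wild type mean, also in log2 units.

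Clusterin (transcript cluster 10416057) stood at 12.98, 12.53, 12.29 and 13.18 on APT121 arrays 1 to 4. Its wild type values ran from 7.94 through a median of 8.83 to 9.28. The lowest APT121 array thus lay 3.01 above the highest wild type array. The means were 12.74 ± 0.41 and 8.70 ± 0.49, a difference of 4.04 (16.5-fold). A larger difference in the upward direction was held by 33 of all genes (0.166%), falls not being counted. Clu was picked with this contrast known, so that rank is a description only. 

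Pglyrp1 (10550509), the peptidoglycan sensor, gave 9.65, 8.87, 9.33 and 9.42 in APT121. In wild type it ran from 5.44 through 6.08 to 6.70, so a gap of 2.17 parted the genotypes. Its means were 9.32 ± 0.33 and 6.03 ± 0.40, a difference of 3.29 (9.75-fold). For Pigr (10349580), the IgA transporter, the APT121 arrays read 9.68, 9.67, 9.75 and 10.10. The wild type arrays lay between 6.40 and 7.51 with a median of 7.04, again without overlap. The Pigr means were 9.80 ± 0.20 and 7.01 ± 0.35, which differ by 2.79 (6.92-fold).

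Lipocalin 2 (10481627) came closest to overlapping among the higher genes. It read 8.33, 8.68, 8.17 and 8.37 on the APT121 arrays and 6.06 to 8.02 on the wild type arrays, with a median of 6.48. Wild type array 6 alone held the 8.02, and the other 7 did not exceed 6.68. With that array the gap between genotypes was 0.15 and the difference 1.77 (3.40-fold, means 8.39 ± 0.21 and 6.62 ± 0.59). Without it the gap was 1.50 and the difference was 1.97 (3.91-fold), with a wild type mean of 6.42 ± 0.20.

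**Figure D1:**
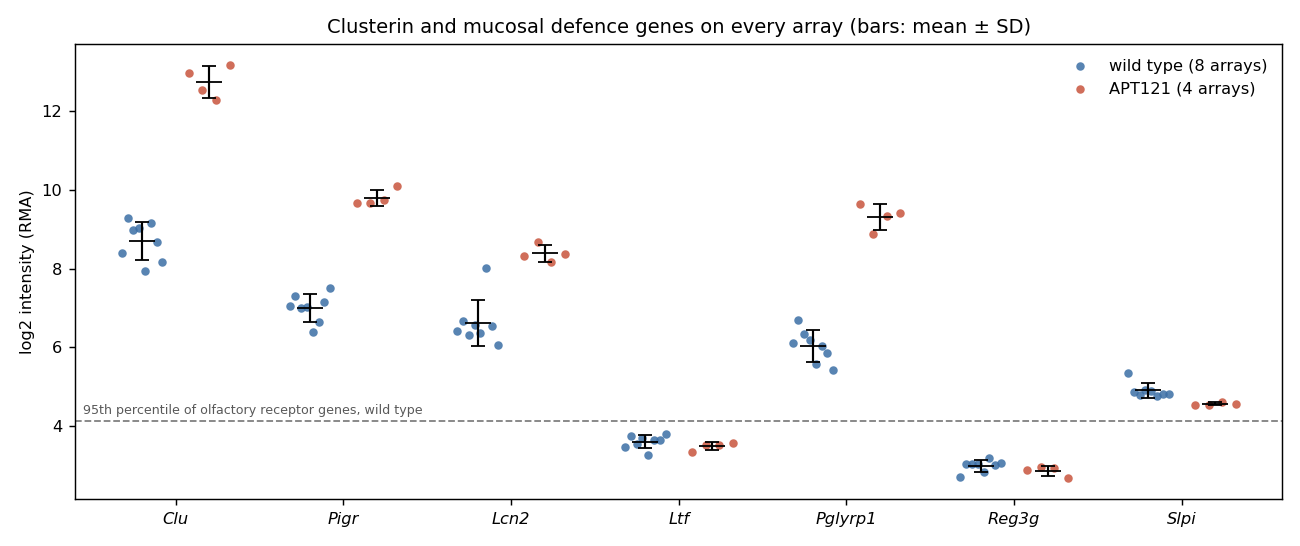
Log2 intensity (vertical axis) of the 7 genes on 8 wild type (blue) and 4 APT121 (red) arrays, 1 point per array, with black bars for mean ± SD and a dashed line at 4.14, the 95th percentile of olfactory receptor genes in wild type. Clu, Pigr, Lcn2 and Pglyrp1 part the genotypes upwards, with 1 high wild type array for Lcn2 at 8.02, and Ltf and Reg3g lie below the line in both genotypes.

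The 3 other genes gave low signals. No detection calls were used, so 1027 olfactory receptor genes, taken as a set, served as a reference for the low end of the scale. Single genes of that set may be expressed in prostate and were not removed. In the set, 95% had a wild type mean under 4.14 and 95% an APT121 mean under 3.99. Lactoferrin (10589703) was at 3.35, 3.53, 3.53 and 3.58 in APT121 and at 3.28 to 3.80 in wild type (median 3.66). These values overlap throughout, with a difference of -0.11, and both means lie within the olfactory receptor range. Reg3g (10545569) was at 2.88, 2.96, 2.93 and 2.68 in APT121 and at 2.71 to 3.19 (median 3.04) in wild type, again overlapping, with a difference of -0.13. For both genes the difference was close to the median of all genes (-0.09). It shrank to -0.00 and -0.03 after a repeated quantile normalisation, and grew to -0.16 and -0.18 after median centring.

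Slpi (10489463), the elastase inhibitor, was the one gene of the set that was lower in APT121 without overlap. Its APT121 values were 4.55, 4.55, 4.62 and 4.56, and its wild type values ran from 4.78 through 4.84 to 5.35. The difference was small, -0.34 (means 4.57 ± 0.04 and 4.91 ± 0.19), and 0.16 parted the highest APT121 array from the lowest wild type array. Wild type array 1, at 5.35, stood 0.44 above its genotype's mean, and without it the difference was -0.28.

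Within a genotype, the higher genes did not all vary together. The median SD of all genes was 0.14 in wild type and 0.12 in APT121, and Clu, Pglyrp1, Pigr and Lcn2 varied more than that in both. Clu and Pglyrp1 shared their low wild type arrays: array 5 was 0.77 below the mean for Clu and 0.45 below for Pglyrp1, and array 8 was 0.54 and 0.59 below. Over the 12 arrays the deviations of these 2 genes from their genotype means correlated at r = 0.77, and at 0.71 to 0.83 when any 1 array was left out. Array 5 was the lowest wild type array for Pigr too, 0.61 below its mean, but array 8 was its highest at 7.51. Pigr went with Ltf (r = 0.75, and 0.53 to 0.88 with 1 array left out), whose lowest and highest wild type arrays were also 5 and 8. Ltf lies within the olfactory receptor range, so that value is with a gene of low signal. Reg3g and Slpi, also low, correlated at r = -0.72 (-0.84 to -0.39 with 1 array left out). The values of a pair share the same pooled RNA and the same array, and these correlations are given as descriptions without a p-value.

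**Figure D2:**
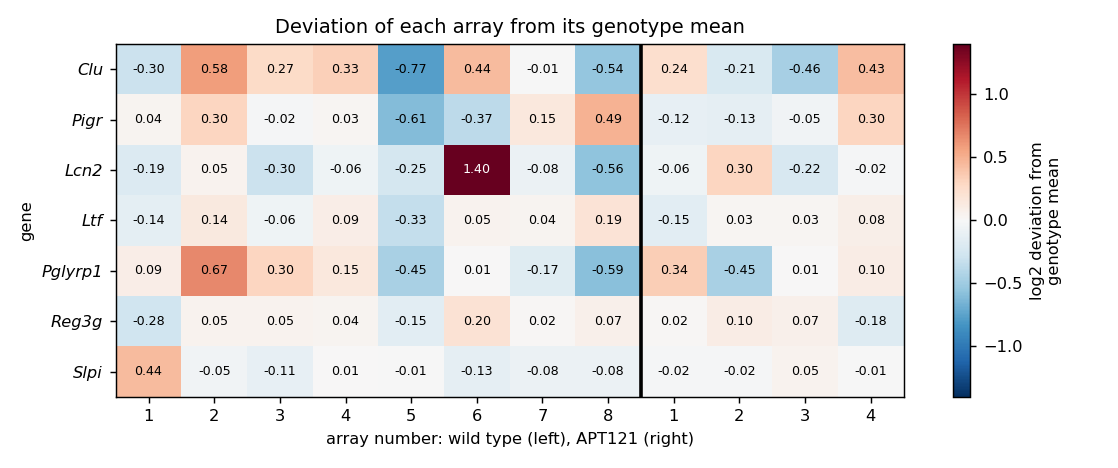
Log2 deviation of each array (columns, wild type 1 to 8 then APT121 1 to 4) from its genotype mean for the 7 genes (rows), with the value printed in each cell. Lcn2 in wild type array 6 (1.40) is the largest deviation, and arrays 5 and 8 are low for both Clu and Pglyrp1.

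The genes with the most similar profile over the 12 arrays were sought by Pearson's r, a measure that mostly reflects the genotype gap where that gap is wide. Clu ran closest to Slc12a7 (r = 0.993), Lrrc26 (0.993) and Cyp2f2 (0.992), which encode a potassium-chloride cotransporter, a BK channel subunit and a cytochrome P450. For Pglyrp1 the closest were Tnik (0.994), Ctsh (0.993) and Sectm1b (0.991), for Pigr Hpse (0.992), Sp100 (0.991) and Plekhg3 (0.989), and for Lcn2 Kbtbd6 (0.973), Psmd11 (0.971) and Sh3pxd2b (0.956). The low genes had looser neighbours: Sco1 (0.860), Magea5 (0.833) and Kctd10 (0.832) for Ltf, Fga (0.892), Gal3st2c (0.854) and Potegl (0.851) for Reg3g, and Dnaaf6b (0.936), Fam229b (0.936) and Kdm4c (0.932) for Slpi. Ltf spanned 0.52 and Reg3g 0.51 on the log2 scale over all arrays, so their likeness rests on small differences.

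After the genotype means were subtracted, most of the 3 closest genes were others, with Tnik, Sco1, Fga and Dnaaf6b on both sets. All these values are the highest found in a search through the genes of the table, predicted genes and olfactory receptors left out. How high such a maximum runs among unrelated genes on so few arrays was not tested, so no shared regulation is read from them. The closest were Ubxn2b (r = 0.912), Clip4 (0.904) and Zfp64 (0.902) for Clu, F5 (0.898), Tnfaip8l2 (0.873) and Tnik (0.870) for Pglyrp1, and Magea5 (0.871), Cert1 (0.854) and Spop (0.853) for Pigr. Nab2 (0.930), Dtx3l (0.862) and Sco1 (0.847) were closest to Ltf, Eme1 (0.964), Fga (0.909) and Bex4 (0.894) to Reg3g, and Try4 (0.921), Dnaaf6b (0.917) and Zfp951 (0.914) to Slpi. For Slpi these values leaned on wild type array 1, without which r was 0.320 with Try4, 0.610 with Dnaaf6b and -0.295 with Zfp951. Lcn2 went with the seminal vesicle secretory genes Svs3a (0.923) and Svs1 (0.912) and with Ceacam10 (0.918), and without wild type array 6 these became 0.189, 0.126 and 0.783.

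The array with high Lcn2 also carried seminal vesicle transcripts. The gland lies against the anterior prostate, and its secretory genes were used here as markers of its RNA, though in APT121 they did not move together. All 10 measured markers, 9530003J23Rik aside, were highest in wild type array 6 among the wild type arrays, by 0.51 to 7.10 on the log2 scale. Their summed intensity there was 16055, against 118 to 214 on the other 7. In APT121 the sum was 1582, 17987, 11230 and 14176 on arrays 1 to 4. Svs2, Svs4, Svs5 and Pate4 each exceeded the other 7 wild type arrays by over 1 on at least 1 APT121 array, while the other 6 markers stayed at 4.17 or less in APT121 and stood at 4.73 to 6.97 in wild type array 6. The APT121 sums thus came mostly from Svs2, Svs4, Svs5 and Pate4. APT121 array 1, with the lowest sum of its genotype, had Lcn2 at 8.33, between the other APT121 arrays. The part of seminal vesicle transcripts in the Lcn2 difference was not tested. The 11th listed gene, 9530003J23Rik, was at 11.30 to 11.71 on every wild type array and fell by 5.95 ± 0.42 in APT121 (limma adjusted p = 6.29e-09), and with it the sums were 2743 to 3513 on the 7 wild type arrays, 19350 on array 6 and 1594 to 18074 in APT121. It was left out of the sum after its values were seen.

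**Figure D3:**
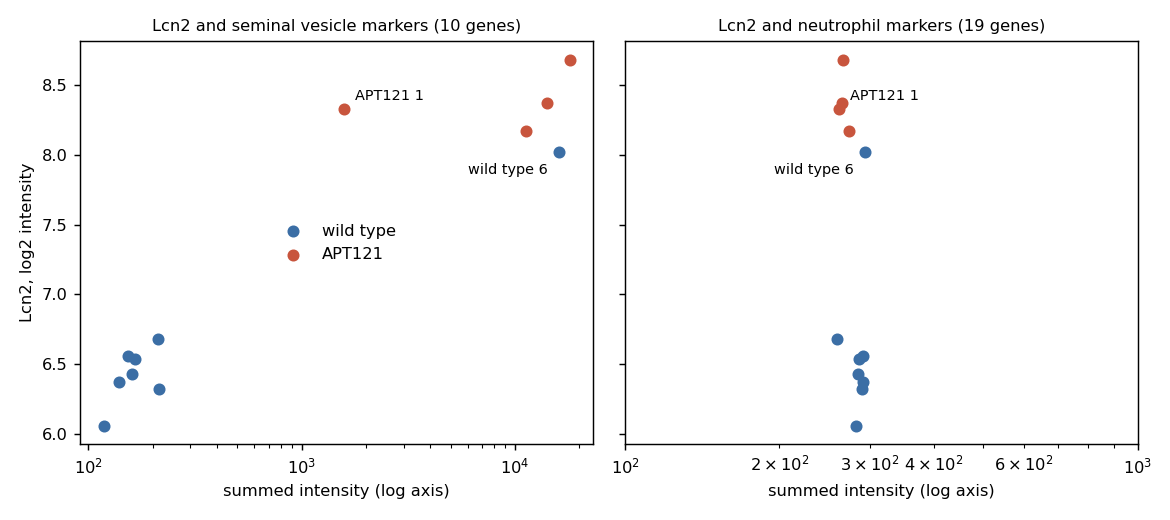
Lcn2 log2 intensity (vertical axis) against the summed intensity of 10 seminal vesicle markers (left, log axis) and of 19 neutrophil markers (right, log axis) on 8 wild type (blue) and 4 APT121 (red) arrays. Wild type array 6 combines a seminal vesicle sum of 16055 with Lcn2 at 8.02, APT121 array 1 has a sum of 1582 with Lcn2 at 8.33, and the neutrophil sums lie between 259 and 294 on all 12 arrays.

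Neutrophils store Lcn2, Ltf and Pglyrp1, and their markers were not higher in APT121. Of 19 measured neutrophil genes, 0 rose and 4 fell (limma, where 52.8% of all genes passed, 22.8% higher and 30.0% lower), and an unadjusted p under 0.05 gave the same 0 and 4. The SAM-type statistic called 0 higher and 1 lower. The list median was -0.09, equal to that of all genes. Cebpe, a granulocyte transcription factor, fell by 0.34 ± 0.08, the protease gene Prtn3 by 0.28 ± 0.10 and the calgranulin gene S100a8 by 0.27 ± 0.09 (limma adjusted p = 0.0202), all 3 with means below the olfactory receptor percentile in both genotypes. S100a8 no longer passed under 5 alternatives, leaving out APT121 array 2 among them (limma adjusted p = 0.0836), and Prtn3 under 4, leaving out APT121 array 1 among them (adjusted p = 0.0549). In all, 5 of the 19 exceeded that percentile in wild type and 4 in APT121. The differences of S100a9 (-0.14), Ngp (0.03), Camp (-0.01) and Ly6g (0.18) did not pass, and the highest wild type mean of these 4 was 4.30, for Camp, whose difference turned to 0.09 after quantile normalisation. The summed level of the list was 259 to 294 in wild type and 262 to 273 in APT121. After a repeated quantile normalisation 2 of the 19 rose, Csf3r (0.31, limma adjusted p = 0.0127) and Ly6g (0.28, adjusted p = 0.0174), and without APT121 array 4 Ly6g alone did (0.25, adjusted p = 0.0312). Without APT121 array 1 the number that fell was 2.

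Macrophage markers did rise. Of 16, 13 were called higher (81.2%, against 22.8% of all genes) and 2 lower (12.5%, against 30.0%), with a median of 0.68. The summed level was 938 to 1159 in wild type and 1518 to 2855 in APT121. The cathepsin gene Ctss rose by 1.91 ± 0.10 (limma adjusted p = 1.86e-10), the Fc receptor chain Fcer1g by 1.07 ± 0.20 and the complement gene C1qb by 0.97 ± 0.14. Marco (-0.52) and Cd163 (-0.27) fell. APT121 array 4 had the lowest sum of its genotype. On it Lyz2 (7.02) lay below its wild type values (7.26 to 7.90), and Cd68 (5.92), C1qc (6.44) and Csf1r (6.55) lay within theirs. Ctss, Fcer1g and C1qb stayed above every wild type array there. Ctss was at log2 7.39 to 7.67 in wild type and 9.23 to 9.85 in APT121. The sum was not repeated without Ctss, so no rise of the other macrophage markers is read from the sum, least of all on APT121 array 4. Of the 15 B and plasma cell markers, 1 rose and 5 fell (median -0.18), and after repeated quantile normalisation 1 rose and 2 fell. The one that rose was Sdc1 (0.70 ± 0.12), which epithelia also make. The largest falls were of Derl3 (-2.21 ± 0.16), a degradation factor of the endoplasmic reticulum, and Ms4a1 (-0.29 ± 0.06). Ms4a1 had means of 3.13 in wild type and 2.84 in APT121, within the olfactory receptor range. Their summed level was 1152 to 1665 in wild type and 562 to 694 in APT121, and Derl3 alone carried that difference, with intensities of 806 to 1333 and 173 to 328. Without Derl3, left out after its values were seen, the other 14 genes summed to 295 to 368 in wild type and 367 to 403 in APT121. Those 14 include Sdc1, at log2 6.40 to 7.24 in wild type and 7.43 to 7.72 in APT121. The sum was not repeated without Sdc1, so no rise of B or plasma cell signal is read from it.

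Epithelial markers moved by type, where 22.8% of all genes were called higher and 30.0% lower. Proximal luminal markers, which in mouse prostate label luminal cells near the urethra with progenitor activity, rose for 11 of 14 genes and fell for 0 (also 0 at an unadjusted p under 0.05 and by the SAM-type statistic), with a median of 2.01. Psca rose by 6.41 ± 0.20 (limma adjusted p = 5.39e-13), the keratin Krt4 by 4.75 ± 0.19 and Cyp2f2, one of the closest profiles to Clu, by 4.22 ± 0.29. Their summed level was 3329 to 4278 in wild type and 13510 to 20495 in APT121. General luminal markers rose for 5 of 12 and fell for 6 (median -0.29; summed level 23316 to 26286 in wild type and 22482 to 23185 in APT121), with Krt8 up by 1.00 ± 0.08, Krt19 up by 1.31 ± 0.08, Tmprss2 down (-1.85 ± 0.09) and Pbsn, the gene whose promoter drives the transgene, down (-3.27 ± 0.17). Basal markers fell for 8 of 12 and rose for 2 (median -0.49; 1662 to 2013 in wild type and 1595 to 1733 in APT121), with Krt5 at -1.29 ± 0.17, Krt15 at -1.25 ± 0.19 and the integrin Itgb4 at 1.43 ± 0.10. Adipose markers fell for 8 of 10 and rose for 0 (limma, median -0.73). The rises were also 0 at an unadjusted p under 0.05 and by the SAM-type statistic. Their summed level was 373 to 1595 in wild type and 349 to 618 in APT121. Over all arrays Car3 fell by 1.77 ± 0.43, Fabp4 by 1.41 ± 0.35, Pck1 by 0.97 ± 0.30, Adipoq by 0.88 ± 0.23 and Plin1 by 0.75 ± 0.19. Without APT121 array 4, Lpl rose (0.69, limma adjusted p = 0.037) and 7 adipose markers fell. The part of any of these cell types in the differences of Clu, Pglyrp1, Pigr and Lcn2 was not tested.

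Seminal vesicle markers as a list had 3 of 11 higher (27.3%, against 22.8% of all genes) and 1 lower (9.09%, against 30.0%), with a median of -0.46. The lower one was 9530003J23Rik (-5.95 ± 0.42), the gene left out of the sum above. It was at 11.30 to 11.71 on every wild type array, unlike the other markers, so its fall is not read as one of seminal vesicle RNA. Svs2 (6.17 ± 1.26, limma adjusted p = 0.000695), Pate4 (5.43 ± 1.23) and Svs5 (5.10 ± 1.14) rose with overlap of the groups through wild type array 6. Svs4 differed by 1.94 ± 0.92 (limma adjusted p = 0.0886), and without that array by 2.63 (limma adjusted p = 0.000261). It also passed without APT121 array 1 (2.57, adjusted p = 0.0430).

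Other antimicrobial and mucosal proteins were mostly unchanged or low. Of 43 measured, 9 rose, 6 fell and 28 did not pass, with a median of -0.10, against -0.09 for all genes. Of all genes, 22.8% were called higher and 30.0% lower. The share of the list that rose was thus close to that of all genes, and the share that fell was below it. Defb50, a beta-defensin, rose from 9.14 ± 0.59 to 11.89 ± 0.13 (2.75 ± 0.25, limma adjusted p = 1.47e-07). Ccl28, a mucosal chemokine that attracts IgA-secreting cells and has antimicrobial activity, rose by 2.38 ± 0.16, and Wfdc15b, which like Slpi has a WAP domain, by 1.84 ± 0.15. Reg3b, the close relative of Reg3g, fell by 0.26 ± 0.10 (limma adjusted p = 0.0465), a call lost under 14 alternatives, with adjusted p from 0.0536 to 0.207. They include leaving out any 1 of the 4 APT121 arrays or of wild type arrays 1, 3, 5, 6 and 8. Reg3b also had low means, 3.25 in wild type and 2.99 in APT121, within the olfactory receptor range. Itln1, a lectin, had the largest fall (-1.39 ± 0.51, limma adjusted p = 0.0315) with a wild type SD of 1.23, and this call was lost under 8 alternatives (adjusted p from 0.0504 to 0.0851), among them leaving out any 1 of the APT121 arrays or wild type array 3 or 4. The difference of Itln1 was -2.27 against wild type arrays 1 to 4 alone and -0.51 against arrays 5 to 8 alone. The split of the list depended on scaling: after quantile normalisation 8 rose and 0 fell, after median centring 8 rose and 14 fell, without APT121 array 1 the counts were 8 and 1, and without APT121 array 2 they were 8 and 0.

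**Figure D4:**
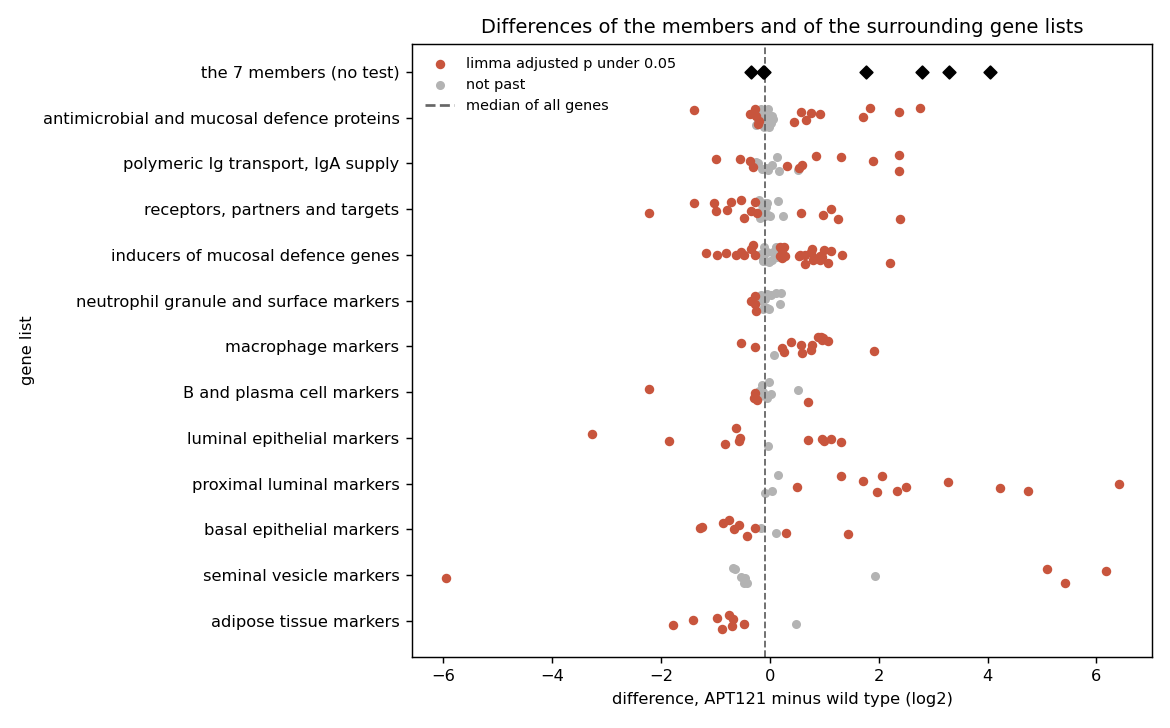
Difference between APT121 and wild type (horizontal axis, log2) for the 7 genes (black diamonds, no test) and for each gene of 12 lists (rows), red where limma's adjusted p was under 0.05 and grey where not, with a dashed line at the median of all genes (-0.09). Proximal luminal markers lie to the right with a median of 2.01, and neutrophil markers lie between -0.34 and 0.20.

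Around Pigr, genes of polymeric immunoglobulin transport and IgA supply rose for 8 of 21 (38.1%, against 22.8% of all genes). They fell for 4 (19.0%, against 30.0%), with a median of 0.13. Rab17, a GTPase of transcytosis in polarised epithelium, rose by 2.38 ± 0.11 (limma adjusted p = 5.50e-11), Ccl28 by 2.38 ± 0.16 and Rab27a, a GTPase of regulated secretion, by 1.89 ± 0.16. Fcamr, an IgA and IgM receptor encoded next to Pigr, rose by 0.85 ± 0.11. Rab3d (-0.98), Rab25 (-0.54), Ccr10 (-0.36) and Rab11a (-0.30) fell. Jchain, the joining chain of the IgA that Pigr carries, was at 3.29 to 5.35 in APT121 and 3.21 to 4.36 in wild type (0.52 ± 0.31, limma adjusted p = 0.160), with the 5.35 on array 4. The difference was 0.11 without APT121 array 4 (limma adjusted p = 0.721) and 0.79 without array 2 (adjusted p = 0.0481).

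Of 29 receptors, partners and targets of the secreted proteins, 11 fell (37.9%, against 30.0% of all genes) and 5 rose (17.2%, against 22.8%), with a median of -0.15 against -0.09. Slc40a1, the iron exporter ferroportin, rose by 2.39 ± 0.11 (limma adjusted p = 3.12e-11) and the transferrin receptor gene Tfrc by 0.97 ± 0.24. Cd59a, which like clusterin restrains the terminal complement complex, fell by 2.22 ± 0.50 from wild type values that ran from 4.98 to 8.09. Against wild type arrays 5 to 8 alone the difference of Cd59a was -1.23, still past the threshold (limma adjusted p = 3.51e-06). Vldlr (-0.72 ± 0.09), a receptor that binds clusterin, and Slc22a17 (-0.35 ± 0.09), a receptor of lipocalin 2, fell. Lrp2 (-0.08), another receptor of both, Extl3 (-0.07), described as a receptor of Reg proteins, and Trem1 (-0.18), the receptor of Pglyrp1, did not pass.

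Inducers of mucosal defence genes rose for 22 of 48 (45.8%, against 22.8% of all genes) and fell for 9 (18.8%, against 30.0%), with a median of 0.13. Elf3, an epithelial ETS factor, rose by 2.20 ± 0.16 (limma adjusted p = 8.89e-09) and Bcl3, an atypical IkB protein, by 1.33 ± 0.16. Of the NF-kB genes, Nfkbia (0.93 ± 0.10), Nfkb2 (0.82 ± 0.06), Nfkbiz (0.78 ± 0.09), Relb (0.64 ± 0.09) and Rela (0.23 ± 0.08) rose, several of them being targets of the pathway as well as parts of it. Stat3 rose by 0.28 ± 0.07. Among receptor genes, Tlr3 rose by 1.12 ± 0.10, Il10rb by 1.07 ± 0.09, Tnfrsf1b by 0.99 ± 0.10, Tlr4 by 0.96 ± 0.13 and Il17re by 0.76 ± 0.10, while Ifngr1 fell (-0.47 ± 0.09). The factors Spdef (-1.18 ± 0.11), Cebpd (-0.62 ± 0.14), Ehf (-0.53 ± 0.06) and Cebpb (-0.30 ± 0.08) fell, as did Cebpe. Of the cytokine genes on the list, Il18 (-0.97 ± 0.11), Il33 (-0.80 ± 0.13) and Il17a (-0.27 ± 0.10) fell, and Tnf (-0.09), Il6 (-0.13), Il1a (-0.13), Il1b (0.04), Il17c (-0.10) and Ifng (-0.05) did not pass.

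The 3 nearest measured genes on either side of each of the 7 on the chromosome are given, in RefSeq order. Before Clu lie Scara3 (2.30 ± 0.14), Ccdc25 (0.34 ± 0.06) and Esco2 (3.21 ± 0.12), which all rose, and after it Gulo (-0.17), Adam2 (-0.07) and Ephx2 (-0.09), none of which passed. Before Pigr, Fcamr and AA986860 (3.38 ± 0.13) rose and Yod1 (0.03) did not pass, and of the 3 genes after it, Fcmr (-0.12), Il24 (-0.05) and Il20 (-0.11), none passed. The immediate neighbours of Lcn2, 1110008P14Rik (-0.60 ± 0.09) and Ptges2 (-0.22 ± 0.07), fell. Farther out, Ciz1 (0.54 ± 0.07) rose, Dnm1 (-0.50 ± 0.09) and Slc25a25 (-0.36 ± 0.11) fell, and Naif1 (-0.11) did not pass. Before Ltf, Lrrc2 (-0.23 ± 0.08) fell and Rtp3 (-0.11) and Tdgf1 (-0.01) did not pass. After it, Ccrl2 (-0.55 ± 0.07), Lrrfip2 (-0.37 ± 0.09) and Epm2aip1 (-0.56 ± 0.07) all fell. The immediate neighbours of Pglyrp1 differed by 0.17 (Mill2, not past the threshold) and 0.28 ± 0.08 (Ccdc61, a rise). Beyond them, Nova2 (-0.24 ± 0.09) and Nanos2 (-0.32 ± 0.12) fell, and Psg17 (0.05) and Psg19 (-0.22) did not pass. Reg3g lies among its relatives Reg1 (-0.10), Reg2 (-0.07) and Reg3a (-0.17), none of which passed, on one side, and Lrrtm4 (-0.10), Gcfc2 (1.02 ± 0.08, a rise) and Mrpl19 (0.06) on the other. Slpi adjoins Svs5 (5.10 ± 1.14) and Matn4 (0.51 ± 0.08), both higher, with Slpi itself at -0.34. Beyond these, Sdc4 (1.15 ± 0.07) rose, Rbpjl (-0.22 ± 0.08) fell, and Svs6 (-0.46) and Svs3a (-0.48) did not pass.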

How the data were processed

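Total RNA of 12 arrays (Affymetrix Mouse Gene 1.0 ST) was used. The authors deposited 1 linear intensity per transcript cluster and array, made by RMA per the submitters' processing notes. Software, version and genome build of that step are not given in the sources used. Values were put on the log2 scale here, the deposited ones being linear. Array medians ran from 32.1 to 33.7, and precision is set by the number of arrays. Of 28815 clusters, 21780 had 1 symbol, 1605 several and 5430 none. For a gene with several clusters the one with the highest mean was kept, which left 19935 genes. A p-value here measures the spread between RNA pools.

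APT121 and wild type, assigned by array titles, were compared by limma (version 3.58.1, R 4.3.3; genotype alone, 12 arrays, two-sided), adjusted by Benjamini-Hochberg over all genes at a threshold of 0.05. A SAM-type statistic followed the design text of the series. Both were tested on simulated data. The 7 genes and 12 lists (261 entries, 233 genes measured, 4 named through RefSeq synonyms, 17 genes on 2 lists) were chosen with earlier results of these data known. The rule named up to 3 genes past the threshold per list by the size of their difference, a fixed set of markers and the 3 most similar profiles of each of the 7 genes. Other genes were named after their values were seen. Proteins were not used here. Alternatives were scalings, filters, variance models, the mean of clusters, a replicate block and arrays left out.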

Additional observations from a re-analysis of the deposited data

Results flagged for a closer look

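In 9 of 106 groups of values (7 genes and 46 named list genes, each in 2 genotypes) 1 array stood apart from the rest by Dixon's test, which chance does in about 5% of groups. Lcn2 was at 8.02 in wild type array 6, where the other 7 lay between 6.06 and 6.68. The same array held Svs2 at 12.93, Svs5 at 12.15, Pate4 at 11.14 and Svs4 at 9.95, above other wild type values of at most 6.34, 5.75, 4.04 and 5.37. Slpi was at 5.35 in wild type array 1 (others 4.78 to 4.92) and at 4.62 in APT121 array 3 (others 4.55 to 4.56), a gap of under 0.1. Car3 was low in wild type array 1 (6.78, others 8.38 to 9.57) and Fcer1g in wild type array 3 (5.01, others 5.85 to 6.32).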

How the results depend on the processing

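The differences of the 7 genes moved by less than the pooled SD within genotypes under the 20 alternatives run for each, from 3.82 to 4.26 for Clu, 2.99 to 3.59 for Pglyrp1, 2.62 to 2.88 for Pigr, 1.64 to 1.98 for Lcn2, -0.16 to -0.00 for Ltf, -0.18 to -0.03 for Reg3g and -0.41 to -0.27 for Slpi. Centring moved the median of all genes from -0.09 to -0.15 and quantile normalisation to -0.06. Called genes over the whole table numbered 10527 (4540 higher, 5987 lower), 11927 after median centring (4103 and 7824), 9378 after quantile normalisation (3880 and 5498), 7096 without the lowest 50% of genes (3770 and 3326, where rises are the larger side) and 8979 to 10493 with 1 array left out. Antimicrobial and mucosal defence calls (15) became 8 after quantile normalisation, and with 1 array left out they ranged from 8 to 14. Neutrophil calls (4) became 2 without wild type 5, 6 and 7 and ranged from 2 to 5 with 1 array left out. B and plasma cell calls (6) became 3 after quantile normalisation. Without the lowest 25% of genes, B and plasma cell calls were 3. Without the lowest 50%, which removes genes from the test, calls were 4 for antimicrobial, 10 for receptors (16), 0 for neutrophil, 2 for B and plasma cell and 4 for adipose (8) genes. Camp (-0.01) turned to 0.09 after quantile normalisation, 0.00 with array weights and 0.02 without wild type 5, 6 and 7, and ranged from -0.04 to 0.02 with 1 array left out. Ngp (0.03) turned to -0.02 after median centring and ranged from -0.02 to 0.06 with 1 array left out. Of the list counts 263 stayed within 1.5 times and 13 did not. Of the named list genes 31 calls were lost and 9 gained over all alternatives.

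Arrays with the same replicate number did not deviate together (r = 0.067, 0.059, 0.064 and -0.026), so the numbers were not taken to pair them. With the replicate number as a block, on the 8 arrays that share numbers, 8814 genes were called, 2 of them neutrophil genes, Jchain passed (0.83, limma adjusted p = 0.0317) and so did Lpl (0.70, adjusted p = 0.0278). Low signal limits Ltf and Reg3g, which lie within the olfactory receptor range.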
